A study of Homo sapiens with 9 samples.

Results

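The MYC network is described here through 10 genes: MYC, MYCN, MAX, MXD3, MXD4, MNT, MLX and MLXIP, with TXNIP and ARRDC4 as target genes of the MLXIP and MLX pair. Every probe set whose platform annotation gives a single symbol, and that symbol one of the 10, was taken, which gave 33 probe sets in 9 of the 10 genes, of 19775 genes named in this way on the array. MXD4 has no value, because its 3 probe sets each carry several symbols. MYC was picked for its fall in knockdown cells and TXNIP for its fall in overexpressing cells, both read from the same arrays, so those falls are given below as descriptions with no test.

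The study measured total RNA of the human embryonic kidney cell line HEK293 on 9 biotin-labelled oligonucleotide arrays, 3 in each of 3 groups. Cells of the Over Expression group had been transfected with a plasmid encoding human MOF, the histone acetyltransferase that acts on lysine 16 of histone H4 and is the product of KAT8. Cells of the Knock Down group had received siRNA against MOF. Wild type cells had no treatment. The labels also call both transfected groups mutant lines, and they name neither the promoter of the plasmid nor the time between transfection and harvest. The design text mentions cells treated with an EGFP double-stranded RNA as controls, and none of the 9 samples carries that label, so transfection itself and the change in MOF cannot be told apart in either comparison with wild type. Nothing in the labels says that replicates came from separate cultures, so each p-value rests on array-to-array spread that may be no more than technical, and 3 arrays a group limit the precision.

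MYC is a transcription factor that binds DNA as a pair with MAX at the E-box, the hexamer CACGTG, and drives genes of growth and ribosome production. MXD3, MXD4 and MNT compete for the same partners and repress. MLXIP, also called MondoA, pairs with MLX, senses phosphorylated glucose and activates TXNIP and ARRDC4, a pair of alpha-arrestins that lower glucose uptake. TXNIP also binds and inhibits thioredoxin.

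The promoters of both MondoA targets are shown because E-boxes and their variants are the elements that MYC and MondoA pairs bind. RefSeq gives the 250 bases before the start of TXNIP at chr1:145996580-145996829, minus strand, and those of ARRDC4 at chr15:97960453-97960702, plus strand, both in GRCh38.p14. Both are written from 5′ to 3′, and capitals mark every match to CACGTG or to its variant CACGAG on either strand.
TXNIP promoter: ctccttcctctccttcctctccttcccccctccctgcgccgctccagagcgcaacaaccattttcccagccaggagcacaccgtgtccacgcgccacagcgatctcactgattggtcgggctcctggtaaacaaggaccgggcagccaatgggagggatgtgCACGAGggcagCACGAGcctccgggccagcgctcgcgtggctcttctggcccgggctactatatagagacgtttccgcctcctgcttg
ARRDC4 promoter: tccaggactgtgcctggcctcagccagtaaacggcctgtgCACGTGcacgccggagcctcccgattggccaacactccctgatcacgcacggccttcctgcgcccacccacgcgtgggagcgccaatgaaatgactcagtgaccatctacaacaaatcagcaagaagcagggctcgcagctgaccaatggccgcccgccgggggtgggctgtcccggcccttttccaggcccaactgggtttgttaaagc

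The TXNIP promoter shown held CACGAG at bases 88 to 83 and again at bases 77 to 72 before the gene start, with 5 bases between the copies. A pair of CACGNG hexamers at that spacing was found in 16 of 35116 RefSeq promoter windows of the same 250 bases (0.0456%), searched on both strands. The ARRDC4 promoter held a single CACGTG, at bases 210 to 205 before its start. CACGTG was found in 2228 of the 35116 windows (6.34%) and CACGAG in 1958 (5.58%). The 11 promoter entries that matched the network, with 2 each for MAX and TXNIP, came from 9 of the genes, all but MYC. Of these entries, 4 held CACGTG (those of ARRDC4, MNT, MLX and MXD4) and 1 held CACGAG, so the other TXNIP entry, for a start further downstream, held neither. These matches are letters in a window, and no binding was measured here.

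The deposited values are MAS5 signals, a linear brightness for each probe set that was scaled on every array to a 2% trimmed mean of 1500.2. Levels of different probe sets cannot be set against each other on this scale, and only the same probe set is compared across arrays. Fold changes below are differences of log2(signal + 1), tested with limma over all 27307 probe sets whose mean log2 signal reached the median of 7.56 (a signal of 188), two-sided, with Benjamini-Hochberg adjustment. A probe set passed, and is said to have risen or fallen, where its adjusted p was under 0.05. Of the 33 network probe sets, 19 in 8 genes reached the filter and 14 did not, among them all 10 of MYCN. Beside single comparisons of 3 arrays with 3, an exact permutation test cannot give a p below 0.1.

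KAT8 checks the labels. Its probe set 221820_s_at read 4594, 4727 and 4763 in Over Expression and 432, 706 and 517 in Knock Down, against 2909.5, 3797 and 3249 in Wild type. In Knock Down KAT8 fell by 2.61 on the log2 scale (SE 0.17, adjusted p = 4.72e-05, limma). On this probe set the Over Expression arrays lay above all Wild type arrays, by 0.51 on the log2 scale (SE 0.17). This difference did not pass the test (adjusted p = 0.259, limma, and 0.218 over replicates 2 and 3). Where the replicate 1 arrays had a term of their own, the adjusted p was 0.0478. The other tested KAT8 set, 214885_at, fell by 1.58 in Knock Down (adjusted p = 0.00296, limma). In Over Expression it read 657, 428 and 381, against 428, 499 and 401 in Wild type, and the groups overlapped (difference 0.11, adjusted p = 0.910). The raised KAT8 signal in Over Expression therefore rests on 221820_s_at alone.

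Arrays of 1 group correlated at 0.973 to 0.985 over the tested probe sets, and no pair was identical. The 27 spiked poly-A control sets were 1.98-fold brighter, and without overlap, on the 6 arrays numbered replicate 2 or 3 than on the 3 numbered replicate 1. A term for the replicate 1 arrays was therefore also fitted, and its value, or that of a fit with the replicate number as a block, stands beside each named result whose call it changes. Of 9 HEK293 markers, 8 had a probe set and 7 were tested. The signal summed over all 8, tested or not, ran from 96367 to 110743 in Over Expression. It ran from 103248 to 114640 in Knock Down and from 105424 to 108827 in Wild type. PAX2 and KRT8 were the markers that fell in Knock Down against Wild type, PAX2 to 195 ± 13.8 against 415 ± 62.5 and KRT8 to 642 ± 67.9 against 955 ± 69.2 (signal, SD, n = 3 each). The other 5 tested HEK293 markers were not called there, and the median log2 fold change of the 7 was 0.02. Of 5 fibroblast markers, all had a probe set and 2 were tested (COL1A1 and COL3A1). The sum over all 5 was 2543 to 3857 in Over Expression and 1851 to 2357 in Knock Down, against 2809 to 3055 in Wild type. COL3A1, a fibroblast collagen, fell in Knock Down to 155.9 ± 65.6 against 299 ± 31.7. Set against Over Expression, in Knock Down the HEK293 markers PAX2, KRT8 and KRT18 fell by 1.66, fell by 1.18 and fell by 0.45 on the log2 scale, and COL3A1 fell by 1.18. The other 4 tested HEK293 markers were not called in that comparison, and the median of the 7 was -0.12. With the mean of a gene's tested probe sets, 3 HEK293 markers were lower there and 1 was higher. Markers of blood, endothelium and neurons had 1, 1 and 2 tested genes, and none passed in any comparison. The part of these shifts in the results below was not tested. In bulk RNA, fewer cells of a type and less RNA per cell cannot be told apart.

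MYC, the founding member, was lowest in the knockdown arrays. Its probe set 202431_s_at read 14618, 11877 and 11992 in Over Expression and 10359, 9502 and 9676 in Knock Down, against 17103, 15243 and 15048.5 in Wild type. The 3 groups did not overlap, with Knock Down below Over Expression and Over Expression below Wild type on every array. The means were 12829 ± 1550.2 and 9846 ± 453, against 15798 ± 1134 in Wild type (SD, n = 3 each), so that Over Expression kept 81.2% and Knock Down 62.3% of the wild type signal. The Knock Down difference, for which MYC was chosen, was -0.68 on the log2 scale (SE 0.10), and the 3 arrays of equal replicate number gave -0.72, -0.68 and -0.64.

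The difference of MYC between Over Expression and Wild type was not what MYC was picked for, although it uses the same wild type arrays. Wild type readings high by chance would have favoured the choice, and the p-values of this difference do not allow for that. The difference itself is as follows. It was -0.30 on the log2 scale (SE 0.10, 95% interval -0.52 to -0.09), lower on 3 of 3 arrays, and did not pass (adjusted p = 0.239, limma). With a term for the replicate 1 arrays the adjusted p was 0.0144. That term raised the calls over all tested probe sets from 130 to 1109. Over replicates 2 and 3 alone the adjusted p of MYC was 0.0600. MYC passed in 0 of 6 fits that left out 1 array (adjusted p = 0.129 to 0.541, limma). Knock Down minus Over Expression, which holds the choosing arrays, was -0.38 for MYC and carries no test.

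**Figure D1:**
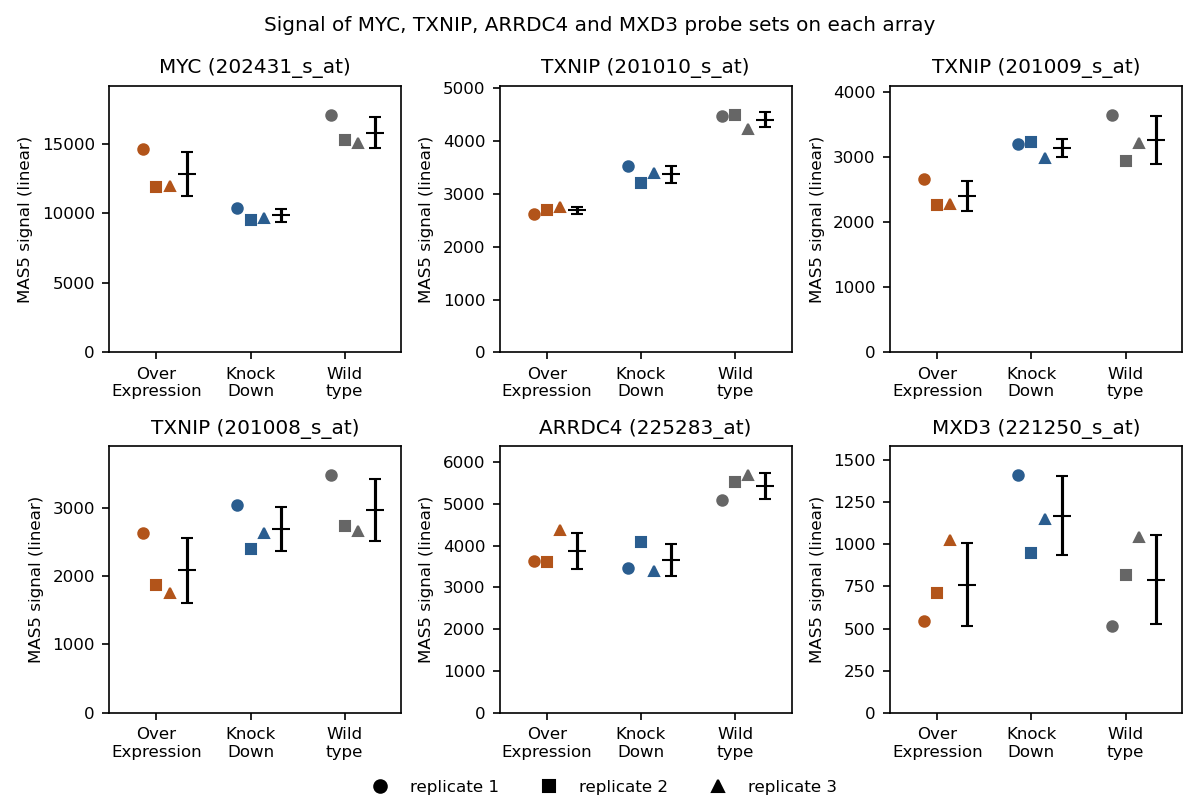
Linear MAS5 signal (vertical axis, from 0) of the single MYC, ARRDC4 and MXD3 probe sets and the 3 TXNIP probe sets on each of 9 arrays, with symbols for replicate number and bars for the mean and SD of 3 arrays. MYC was lowest in Knock Down (10359, 9502 and 9676), TXNIP 201010_s_at was lowest in Over Expression (2623, 2703.5 and 2745), and ARRDC4 lay below every Wild type array in both treated groups.

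TXNIP, the arrestin that binds thioredoxin, was lowest in the overexpressing cells on all 3 of its probe sets. Set 201010_s_at, the brightest of the 3, read 2623, 2703.5 and 2745 in Over Expression and 3521, 3201 and 3401 in Knock Down, against 4476, 4504 and 4239 in Wild type. No array of one group reached into another. The means were 2690.5 ± 61.7 and 3374 ± 161, against 4407 ± 146 in Wild type (SD, n = 3 each), or 61.1% and 76.6% of the wild type signal. The difference of Over Expression from Wild type, on which TXNIP was chosen, was -0.71 on the log2 scale (SE 0.09).

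The other TXNIP probe sets showed the same order with more spread. Set 201009_s_at read 2659, 2261 and 2279.6 in Over Expression and 3197, 3231 and 2984 in Knock Down, against 3651, 2930.1 and 3206 in Wild type. Set 201008_s_at read 2636, 1869.6 and 1754 in Over Expression and 3051, 2404 and 2637 in Knock Down, against 3490.2, 2744 and 2672 in Wild type. On both sets all Over Expression arrays lay below all Wild type arrays, and the Knock Down arrays overlapped the Wild type ones. As descriptions, Over Expression minus Wild type was -0.44 and -0.52 on the log2 scale for these sets, in that order.

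Knock Down was not the treatment TXNIP was chosen on, though its comparison shares the wild type arrays. Wild type readings high by chance would have favoured that choice and would lower this difference too. The p-values of TXNIP below do not allow for this. Set 201010_s_at fell by 0.39 on the log2 scale (SE 0.09, adjusted p = 0.0149, limma), lower on 3 of 3 arrays. Without Knock Down replicate 2 its adjusted p was 0.0665, and without Wild type replicate 2 it was 0.0619. The other probe sets of TXNIP did not pass: 201009_s_at differed by -0.05 (95% interval -0.30 to 0.20, adjusted p = 0.802) and 201008_s_at by -0.13 (95% interval -0.51 to 0.24, adjusted p = 0.637). The 3 probe sets of TXNIP therefore differed in the call, while all 3 differences were negative. Both intervals overlapped that of 201010_s_at (-0.58 to -0.19), and the difference between probe sets was not tested. Knock Down minus Over Expression was 0.33, 0.39 and 0.39 on the log2 scale for 201010_s_at, 201009_s_at and 201008_s_at, again as a description.

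ARRDC4, the second arrestin target of MondoA, fell in the knockdown and was also low in the overexpressing cells. Its probe set 225283_at read 3633, 3609 and 4370.0 in Over Expression and 3472, 4086 and 3383 in Knock Down, against 5089, 5521 and 5694 in Wild type. Every treated array lay below every untreated one, and the treated groups overlapped each other. The means were 3871 ± 433 and 3647 ± 383, against 5435 ± 312 in Wild type (SD, n = 3 each), or 71.2% and 67.1% of it. In Knock Down ARRDC4 fell by 0.58 on the log2 scale (SE 0.11, adjusted p = 0.00685, limma), and it passed in 6 of 6 fits that left out 1 array.

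In Over Expression ARRDC4 differed from Wild type by -0.49 on the log2 scale (SE 0.11, 95% interval -0.74 to -0.25), lower on 3 of 3 arrays. It did not pass with all probe sets adjusted together (adjusted p = 0.101, limma), and had an adjusted p of 0.0119 with a term for the replicate 1 arrays. Over replicates 2 and 3 alone the adjusted p was 0.0944. In this comparison ARRDC4 passed in 0 of 6 fits that left out 1 array (adjusted p = 0.121 to 0.315, limma). Knock Down minus Over Expression was -0.09 for ARRDC4, with a 95% interval of -0.33 to 0.16 (adjusted p = 0.663), so a difference between the treatments was not detectable with 3 arrays each.

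**Figure D2:**
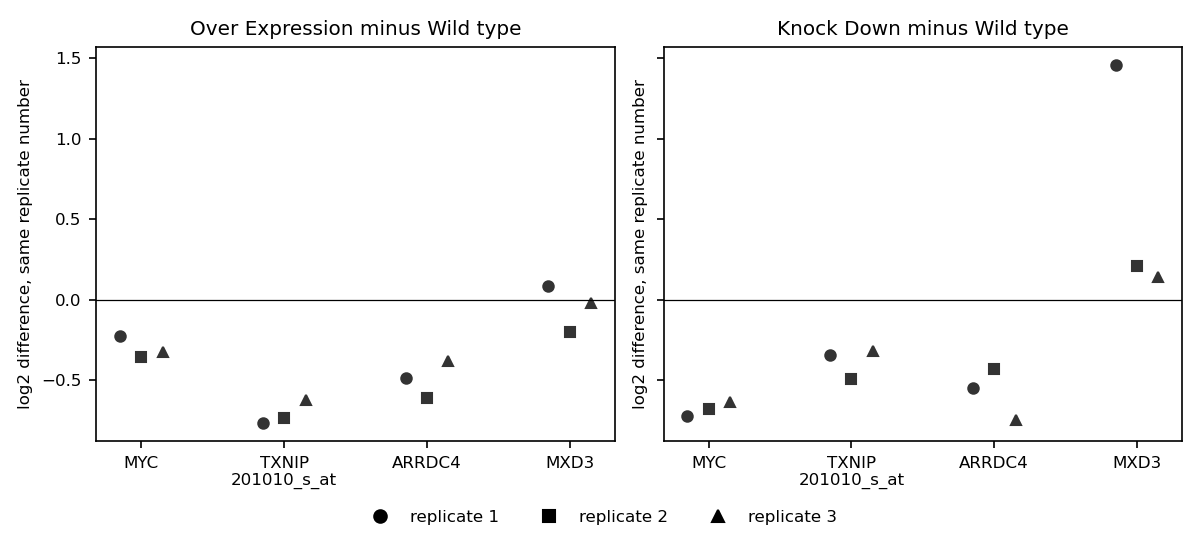
Log2 difference (vertical axis) between the arrays of equal replicate number, Over Expression minus Wild type on the left and Knock Down minus Wild type on the right, for MYC, TXNIP 201010_s_at, ARRDC4 and MXD3, with 1 symbol per replicate. MYC, TXNIP and ARRDC4 lie below 0 in all 3 replicates of both treatments, and MXD3 in Knock Down ranges from 0.14 to 1.46.

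MLXIP and MLX, the partners that activate both arrestins, had no probe set that passed in any comparison. MLXIP set 225157_at read 4135, 2752.5 and 3631 in Over Expression and 3876, 2961 and 3252 in Knock Down, against 3498, 2789 and 2732 in Wild type, and the groups overlapped. MLXIP set 202519_at read 3287, 3216 and 2761 in Over Expression and 2887.5, 2322 and 2475 in Knock Down, against 2999, 2278 and 2048 in Wild type. Its Over Expression difference was 0.35 on the log2 scale (95% interval 0.02 to 0.68, adjusted p = 0.373, limma), with 1 Over Expression array below the highest Wild type array.

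A further MLXIP probe set, 1554886_a_at, lay just outside the filter, at a mean log2 signal of 7.15, and has no test. It ranged from 93.4 to 102.7 in Over Expression and read 257, 188 and 221 in Knock Down, against 127, 138 and 120.5 in Wild type. Its 3 groups did not overlap, with Knock Down highest, an order that neither tested probe set of MLXIP shared. The network probe set just inside the filter, MAX 214108_at, had a mean log2 signal of 7.79.

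Of the 5 tested MLX probe sets, 217909_s_at stood nearest to the threshold. It read 6449, 5747 and 5825 in Over Expression and 7812, 6762 and 7102 in Knock Down, against 6411.5, 5581 and 5981 in Wild type. All Knock Down arrays were above all others. Knock Down minus Wild type was 0.27 on the log2 scale (SE 0.09, adjusted p = 0.0737, limma) and, with the replicate number as a block, its adjusted p was 0.00752. The same MLX set differed by 0.27 between Knock Down and Over Expression (adjusted p = 0.0826, and 0.00849 with the block).

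The dimmest tested MLX probe set, 1570347_at, read 375, 287 and 448.5 in Over Expression and 316, 338 and 338 in Knock Down, against 326, 124 and 193 in Wild type. The brightest Wild type array overlapped both treated groups. Its differences from Wild type were 0.87 in Over Expression (adjusted p = 0.315) and 0.74 in Knock Down (adjusted p = 0.158, and 0.0366 without Wild type replicate 1, where the difference was 1.09). The remaining MLX sets 213708_s_at, 217910_x_at and 210752_s_at lay between -0.10 and 0.16 against Wild type in both treatments.

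MAX, the shared partner of MYC and its antagonists, was measured by 5 tested probe sets. The brightest, 209332_s_at, read 18038, 15806 and 15999 in Over Expression and 14619, 12593.5 and 11884 in Knock Down, against 16781, 15125 and 14211 in Wild type. All Knock Down arrays lay below all Over Expression arrays, and 1 Knock Down array lay above the lowest Wild type array. Set against Over Expression, MAX fell by 0.35 on the log2 scale in Knock Down (SE 0.10, adjusted p = 0.0357, limma), the only tested network call of this comparison outside MYC and TXNIP. That call of MAX was lost without any of Over Expression replicates 1, 2 and 3 or Knock Down replicates 2 and 3 (adjusted p up to 0.130), and also without the filter (0.0618) or without the variance trend (0.0877).

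Against Wild type, the same MAX set differed by -0.24 in Knock Down (adjusted p = 0.125, limma, and 0.00845 with the replicate block) and by 0.11 in Over Expression (adjusted p = 0.698). The other 4 MAX probe sets did not pass in any comparison. Knock Down minus Over Expression was -0.23 for 209331_s_at, -0.31 for 210734_x_at, -0.30 for 208403_x_at and 0.00 for 214108_at. With the replicate block the adjusted p of 210734_x_at in that comparison was 0.0387, against 0.103 without it.

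The antagonists were measured by 1 tested probe set each. MXD3 set 221250_s_at read 545, 710.0 and 1028 in Over Expression and 1414, 947 and 1151 in Knock Down, against 513, 817.5 and 1042.5 in Wild type. The groups overlapped, and the range within Over Expression and within Wild type was wider than the gap between group means. Knock Down minus Wild type was 0.60 on the log2 scale (SE 0.29, adjusted p = 0.180, limma), and the arrays of equal number gave 1.46, 0.21 and 0.14. Over replicates 2 and 3 alone the difference of MXD3 was 0.18.

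MNT, a broadly expressed antagonist, read 2229, 2118 and 2619.6 in Over Expression and 2432, 2508 and 2651 in Knock Down, against 2671.5, 2386 and 3185 in Wild type on set 204206_at. The groups overlapped. Its differences from Wild type were -0.24 in Over Expression (adjusted p = 0.495) and -0.11 in Knock Down (adjusted p = 0.612), and 0.13 between Knock Down and Over Expression (adjusted p = 0.553, limma). The 10 MYCN probe sets, for the neural relative of MYC, read between 1.9 and 189.9 over the 9 arrays, and none reached the filter.

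**Figure D3:**
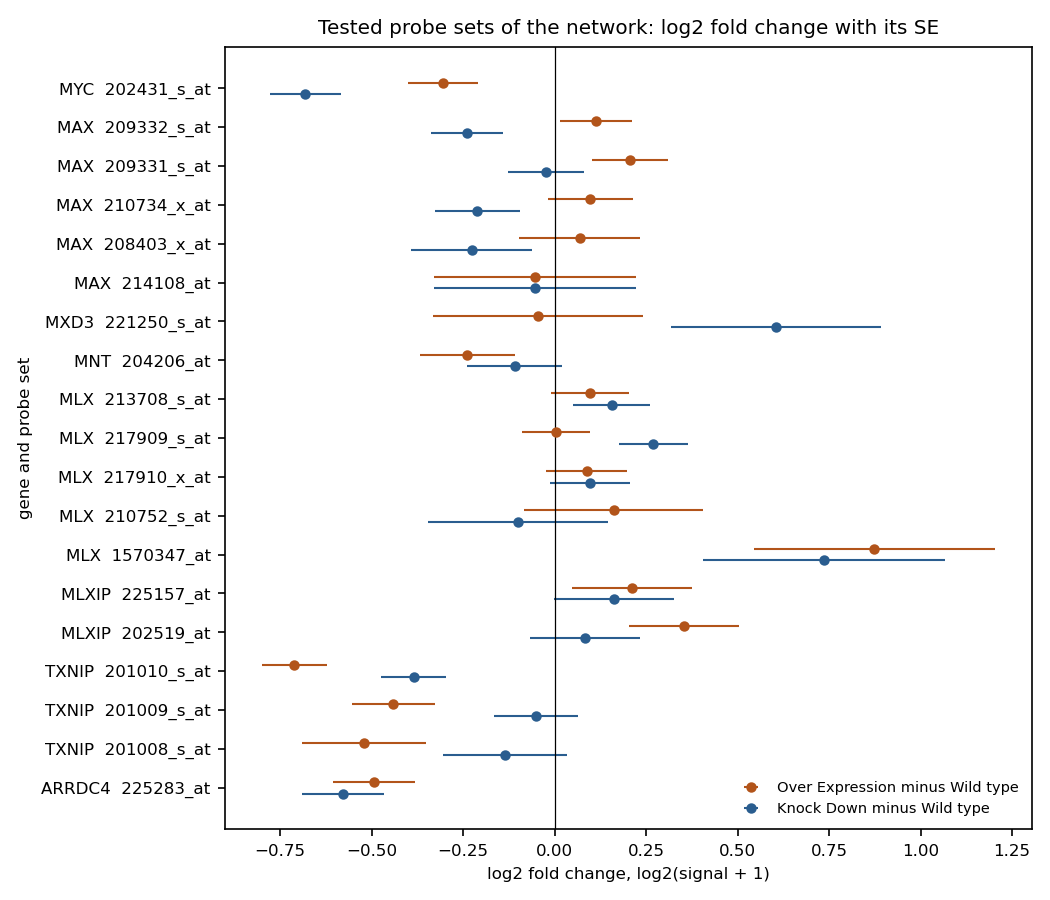
Log2 fold change against Wild type (horizontal axis) of the 19 tested network probe sets, one per row, with bars for the standard error of the fit. The MYC, TXNIP and ARRDC4 rows lie left of 0 in both treatments, from -0.71 for TXNIP 201010_s_at in Over Expression to -0.05 for TXNIP 201009_s_at in Knock Down, while the 2 MLXIP rows lie right of 0.

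The network was counted without the gene chosen on each comparison. In each comparison with Wild type the other chosen gene stayed in, although its choice rested on the same Wild type arrays. In Over Expression against Wild type, with the 3 TXNIP sets left out, 0 of 16 probe sets were called by limma in either direction, where 0.319% of all 27307 tested probe sets were called higher and 0.157% lower. Of these 16 sets 4 had an unadjusted p under 0.05. The weakest of the 4, MLXIP 202519_at (unadjusted p = 0.0381, limma), ranked 2787 by p among all 27307 sets. The next of the 16, MAX 209331_s_at (unadjusted p = 0.0710, limma), ranked 4239. The cut thus lay between these ranks, and many other sets also passed it. The exact share of all sets is not given here, so the 4 are no result about the network. Groups did not overlap for 3 of these 16 sets (18.8%), beside 17.6% of all probe sets. The median log2 fold change of the 16 sets was 0.09, and that of all tested sets 0.01.

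With MYC left out, Knock Down against Wild type had 0 of 18 higher and 2 lower (11.1%), ARRDC4 and TXNIP 201010_s_at, where 6.82% of all probe sets were called higher and 8.89% lower, so the share was near the background. The 18 sets keep TXNIP, which was chosen against the same Wild type arrays, so the count of lower sets is not free of that choice. Groups did not overlap for 4 of the 18 (22.2%), beside 35.2% of all probe sets. The median of the 18 sets was -0.05, beside 0.01 for all.

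With MYC and TXNIP left out, Knock Down against Over Expression had 0 of 15 higher and 1 lower (6.67%), MAX 209332_s_at, where 5.75% of all probe sets were called higher and 8.76% lower. Of the same sets 4 of 15 did not overlap (26.7%), beside 33.7% of all. The median of the 15 sets was -0.09, beside -0.01 for all. The 3 comparisons share arrays in pairs, so their counts are not independent of each other. Under the replicate block, and with the chosen genes counted in, 5 of 19 network sets were called in Knock Down against Wild type. In Knock Down against Over Expression 7 of 19 were called. The block called 7637 and 7334 of all 27307 tested probe sets in these comparisons, in that order. Those network counts include the sets of the chosen genes, so they record the effect of the setting and are no result about the network.

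Around the network, 7 lists of related genes were read, each gene through its brightest tested probe set, beside 12036 genes measured in this way. In Knock Down against Wild type 6.70% of those genes rose and 12.7% fell, with a median of -0.04. In Over Expression against Wild type 0.457% rose and 0.174% fell, with a median of 0.00. The shares for Knock Down against Over Expression were 6.22% higher and 12.1% lower, with a median of -0.05.

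Of 30 genes known to be activated by MYC, 23 were measured, and in Knock Down against Wild type 3 rose and 0 fell, with a median of 0.04. SHMT2, a mitochondrial serine enzyme, rose by 0.33 on the log2 scale (adjusted p = 0.0110), CCND2, cyclin D2, by 0.53 (adjusted p = 0.0142) and PA2G4, a growth-regulating protein of the nucleolus, by 0.55 (adjusted p = 0.0482, limma). SRM, spermidine synthase, differed by 0.31 (adjusted p = 0.0508, and 0.00761 with the replicate block). The call of CCND2 was lost without Knock Down replicate 2 or 3 and that of PA2G4 in 5 of 6 fits without 1 array, all but the one without Wild type replicate 1. PA2G4 was also lost without the filter (adjusted p = 0.0743), after quantile normalization (0.0540) and without the variance trend (0.0993). With the mean of a gene's tested probe sets in place of the brightest, 5 of the 23 rose and 0 fell. In Over Expression against Wild type 1 of the 23 rose, TFRC, the transferrin receptor, to 25490.1 ± 2403 against 16763 ± 1268 (signal, SD, n = 3 each), which is 0.60 on the log2 scale (adjusted p = 0.0127). That call was lost without Over Expression replicate 3 or Wild type replicate 2, without the variance trend (adjusted p = 0.0816) and with only the groups compared (adjusted p = 0.0621). In Knock Down against Over Expression 2 of the 23 rose, with a median of 0.07. They were CCND2, by 0.59 (adjusted p = 0.00824), and SHMT2, by 0.23 (adjusted p = 0.0467, limma). There 1 fell, TFRC, by 0.64 on the log2 scale (adjusted p = 0.00121, limma). The calls of CCND2, SHMT2 and TFRC in this comparison were not refitted without 1 array or under the other model settings.

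Of 11 genes known to be repressed by MYC, 10 were measured, and in Knock Down against Wild type 4 rose and 1 fell, with a median of 0.40. GADD45A, a stress-induced growth arrest gene, was at 9472 ± 967 against 5131 ± 421 (signal, SD, n = 3 each), a rise of 0.88 on the log2 scale (adjusted p = 5.46e-04, limma). KLF6, a zinc finger factor, rose by 0.55 (adjusted p = 0.00396), and the cell cycle inhibitors CDKN1A and CDKN1B by 0.40 (adjusted p = 0.0176) and 0.45 (adjusted p = 0.0213). CDKN1C, another inhibitor of that family, fell by 0.69 (adjusted p = 0.0129), though the mean of its 4 probe sets did not pass (adjusted p = 0.171). GADD45A and KLF6 passed in 6 of 6 fits without 1 array. The calls of CDKN1A were lost without Knock Down replicate 1 or Wild type replicates 2 or 3, those of CDKN1B without Knock Down replicates 2 or 3 or Wild type replicates 1 or 2 and without the trend (adjusted p = 0.0539), and that of CDKN1C without Wild type replicate 3. With the mean of a gene's tested probe sets, 5 of the 10 rose and 1 fell, where CDKN2B (0.40, adjusted p = 0.0207) joined the higher genes and NDRG2 (-0.66, adjusted p = 0.00676) was the lower one in place of CDKN1C. CDKN1B, CDKN2B and NDRG2 were added to the named genes after their values were seen.

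In Over Expression against Wild type, 2 of these 10 genes rose and 0 fell, with a median of 0.05. CDKN1A was at 7057 ± 428 against 4654 ± 419 (signal, SD, n = 3 each), a rise of 0.60 on the log2 scale (adjusted p = 0.0202, limma). GADD45A was at 7806 ± 651 against 5131 ± 421, a rise of 0.61 (adjusted p = 0.0321). CDKN1A was lost without Over Expression replicates 1 or 3 or Wild type replicates 2 or 3, and GADD45A without any 1 of the 6 arrays. Neither of these calls was made without the variance trend (adjusted p = 0.0772 for CDKN1A and 0.103 for GADD45A) or with only the groups compared (adjusted p = 0.0880 for CDKN1A and 0.0891 for GADD45A). Knock Down against Over Expression was mixed, with 3 of the 10 higher and 2 lower and a median of 0.17. With the mean of a gene's tested probe sets, 3 were higher and 1 lower.

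Of 18 cofactors and turnover factors of MYC, 15 were measured, and in Knock Down against Wild type 2 rose and 1 fell, with a median of -0.02. USP28, a deubiquitinase that stabilises MYC, rose by 0.57 on the log2 scale (adjusted p = 0.00839, limma), while the mean of its 3 probe sets did not pass (adjusted p = 0.0742). TRIM28, a co-repressor, rose by 0.51 (adjusted p = 0.0152), and RUVBL1, an ATPase of chromatin remodelling complexes, fell by 0.31 (adjusted p = 0.0141). USP28 passed in 6 of 6 fits without 1 array, TRIM28 was lost without Knock Down replicate 3 or Wild type replicates 2 or 3, and RUVBL1 without Knock Down replicate 2 or Wild type replicate 3. HUWE1, a ubiquitin ligase, differed by 0.21 (adjusted p = 0.213, and 0.0280 with the replicate block). The 5 other genes of the network (MXD1, MXI1, MYCL, MGA and MLXIPL) were all measured, and limma called 0 of them, with 0 at an unadjusted p under 0.05, in each of the 3 comparisons.

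**Figure D4:**
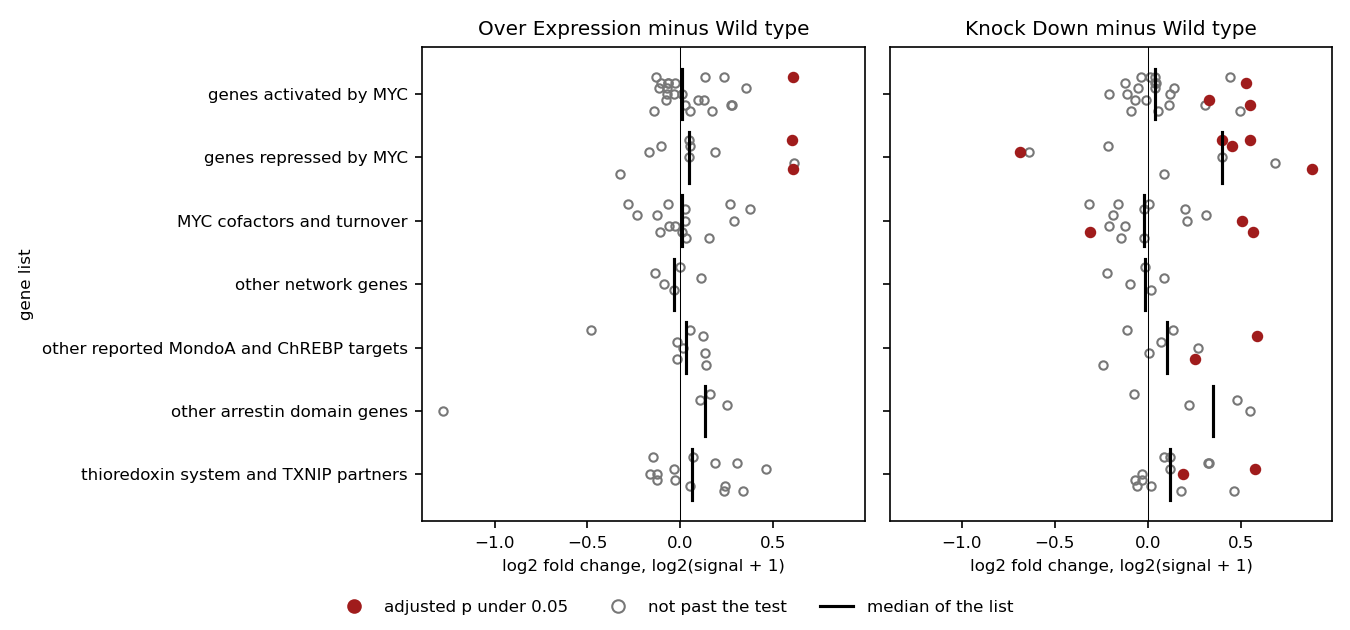
Log2 fold change against Wild type (horizontal axis) of each measured gene of 7 lists, Over Expression on the left and Knock Down on the right, with filled points for an adjusted p under 0.05 and a vertical bar at the median of each list. The median of the genes repressed by MYC is 0.40 in Knock Down and 0.05 in Over Expression, and ARRDC3 is the point at -1.28 in Over Expression.

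Of 9 other reported targets of MondoA and its relative ChREBP, 8 were measured. In Knock Down against Wild type, where ARRDC4 and 1 TXNIP probe set fell, 2 of the 8 rose and 0 fell, with a median of 0.10. FASN, fatty acid synthase, rose by 0.59 on the log2 scale (adjusted p = 0.0224) and LDHA, lactate dehydrogenase A, by 0.25 (adjusted p = 0.0339, limma). FASN was lost without Knock Down replicates 1 or 3 or Wild type replicates 2 or 3, and LDHA without any 1 of the 6 arrays, without the filter (adjusted p = 0.109) and without the trend (adjusted p = 0.123). Knock Down against Over Expression gave 2 higher, LDHA at 0.27 (adjusted p = 0.0268) and TKFC, a fructose pathway kinase, at 0.62 (adjusted p = 0.0394). It gave 1 lower, PFKFB3, which makes a regulator of glycolysis, at -0.38 (adjusted p = 0.0433). Each of these 3 calls was made in 1 of 6 fits without 1 array: LDHA without Over Expression replicate 2, TKFC without Over Expression replicate 1 and PFKFB3 without Knock Down replicate 3. None of the 3 passed without the filter (adjusted p = 0.0651 to 0.0915) or without the trend (adjusted p = 0.0504 to 0.110). TKFC and PFKFB3 did not pass with only the groups compared (adjusted p = 0.0628 and 0.0718), and LDHA and PFKFB3 passed neither after quantile normalization (adjusted p = 0.0531 and 0.0537) nor over replicates 2 and 3 (adjusted p = 0.0989 and 0.0598). FASN differed by 0.46 there (adjusted p = 0.0589, and 0.00806 with the replicate block). Over Expression against Wild type gave 0 calls by limma, with 1 gene at an unadjusted p under 0.05, a cut for which no share over all genes is given here.

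Among 6 other arrestin genes 4 were measured, and ARRDC3, an alpha-arrestin like TXNIP and ARRDC4, was the one called. Its signal was 150.2 ± 22.4 in Over Expression and 537 ± 93.5 in Knock Down, against 371 ± 87.9 in Wild type (SD, n = 3 each). Knock Down minus Over Expression was 1.83 on the log2 scale (SE 0.25, adjusted p = 0.00135, limma), called in 6 of 6 fits without 1 array. Over Expression minus Wild type was -1.28 with no overlap (adjusted p = 0.0609, 0.0374 after quantile normalization and 0.0122 with a term for the replicate 1 arrays), and Knock Down minus Wild type was 0.55 (adjusted p = 0.169).

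Of 17 genes of the thioredoxin system and TXNIP partners, 14 were measured, and in Knock Down against Wild type 2 rose and 0 fell, with a median of 0.12. SLC2A3, the glucose transporter GLUT3, rose by 0.58 on the log2 scale (adjusted p = 0.0179, limma), and was lost without Knock Down replicate 3 or Wild type replicates 2 or 3. PRDX2, a peroxide-reducing enzyme fed by thioredoxin, rose by 0.19 (adjusted p = 0.0416) and averaged 0.48 over its 4 probe sets. The call of PRDX2 was lost without any 1 of the 6 arrays, and its adjusted p was 0.0658 to 0.174 without the filter, without the trend, with only the groups compared and over replicates 2 and 3. PRKAA1, a catalytic subunit of AMP-activated kinase, differed by 0.47 (adjusted p = 0.0523, and 0.0219 with the replicate block). NEDD4L, a ubiquitin ligase, differed by 0.33 (adjusted p = 0.0977, and 0.0423 with a term for the replicate 1 arrays). Over Expression against Wild type gave 0 calls by limma in this list, with 5 genes at an unadjusted p under 0.05. The share of all genes at that cut is not given here, so the 5 cannot be set against it.

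The genes whose log2 signal followed MYC most closely over the 9 arrays, by Pearson correlation among 12028 genes, were SECISBP2 (r = 0.991), MSRB2 (0.984), SYTL4 (0.979), SCO1 (0.977) and VPS11 (0.977). SECISBP2, a selenoprotein synthesis factor, averaged 8878 ± 515 in Over Expression and 7949 ± 179 in Knock Down, against 9881 ± 330.1 in Wild type (signal, SD, n = 3 each). Those closest to TXNIP were IDH1 (r = 0.977), SMAP1 (0.966), IMPACT (0.965), WDR31 (0.963) and MIB1 (0.960). IDH1, cytosolic isocitrate dehydrogenase, averaged 11183 ± 805 in Over Expression and 13735 ± 603 in Knock Down, against 17327 ± 965 in Wild type. These correlations describe an order of 3 groups on shared arrays, and no p is given for them.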

How the data were processed

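Total RNA of 9 HEK293 samples was measured on oligonucleotide arrays, and titles gave each sample its group. The deposited table holds the authors' linear intensity for 54675 probe sets, and the submitters' processing notes name MAS5 as the tool (version and settings not given in the sources used here). Every array had a 2% trimmed mean of 1500.2, which hides any change in the total RNA of a cell. Probe sets were named from the platform annotation (41097 with 1 symbol, 1801 with several, 11777 with none). Values were taken as log2(signal + 1). With 62 control sets removed, those at or above the median mean log2 signal entered a single linear model of the 9 arrays in limma 3.58.1 (R 4.3.3), with trended empirical Bayes variances, 6 residual degrees of freedom and no covariate. P-values were adjusted over all 27307 tested sets, and the code was tested on simulated data. Figures were drawn with matplotlib 3.10.9.

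The members and gene lists were chosen with earlier results of these data known. For each list, up to 4 genes of smallest p in the comparison with most calls are named, with exceptions stated where they stand, and for MYC and TXNIP the 5 genes of highest correlation. Equal replicate numbers were checked for pairing by the correlation of deviations from group means: 0.362, 0.144 and 0.137 for Knock Down with Wild type, 0.352, 0.237 and 0.106 for Knock Down with Over Expression, and 0.447, 0.16 and 0.083 for Over Expression with Wild type. Every pair passed 0.1 except in the last comparison, so the blocked value stands beside results only where Knock Down is compared. Some pairs of unequal number correlated more than those of equal number. Knock Down 2 with Wild type 3 gave 0.18, and Over Expression 2 with Wild type 3 gave 0.284. These correlations therefore do not show that a replicate number marks a pair, and the block is only an alternative setting. The alternatives tried were a pseudocount of 16, no filter, quantile normalization, no variance trend, only the groups compared, a replicate block, a term for the replicate 1 arrays, replicates 2 and 3 only, leaving out each array, and the mean of a gene's probe sets.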

Additional observations from a re-analysis of the deposited data

How the results depend on the processing

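Counts of called probe sets moved with the setting, and the cause was not tested beyond what each setting changes. Over Expression against Wild type had 130 calls, and 70 without the variance trend, 27 with only the groups compared (fewer arrays in the fit), 1022 with the replicate block, 1109 with the replicate 1 term and 220 over replicates 2 and 3. Leaving out 1 array gave 25 to 97. Knock Down against Wild type had 4289, and 7637 with the block, 7706 with the term and 2213 to 3653 without 1 array. Knock Down against Over Expression had 3963, and 7334 with the block, 7425 with the term and 2040 to 3289 without 1 array. The next counts include calls on the values that chose MYC and TXNIP, so they record the effect of settings and are no result about the network. Without the gene or genes chosen on the comparison itself, the main fit called 0 of 16 network sets in Over Expression against Wild type. It called 2 of 18 in Knock Down against Wild type and 1 of 15 in Knock Down against Over Expression. Network sets called, with the chosen MYC and TXNIP sets counted in, were 1 in Over Expression against Wild type, 5 with the block or the term, 2 over replicates 2 and 3, and 0 to 1 without 1 array, with 0 reached without Wild type replicate 2. They were 3 in Knock Down against Wild type, 5 with the block or the term and 2 to 4 without 1 array. They were 4 in Knock Down against Over Expression, 2 without the filter or with only the groups compared, 1 without the trend, 7 with the block or the term and 0 to 2 without 1 array. The block lowered the adjusted p of MYC and ARRDC4 in Over Expression against Wild type to 0.0204 and 0.0161, and that of KAT8 to 0.0381, although these replicate numbers did not meet the pairing criterion. With the mean of a gene's tested probe sets, list counts moved by over 1.5 times as follows. In Knock Down against Over Expression the genes activated by MYC gave 4 higher and 2 lower (2 and 1 with the brightest set), the cofactors 2 and 3 (1 and 0), the arrestin genes 1 and 1 (1 and 0), and the thioredoxin list 0 and 1 (1 and 1). In Knock Down against Wild type the genes activated by MYC gave 5 and 0 (3 and 0), and the arrestin genes 1 and 0 (0 and 0). In Over Expression against Wild type the arrestin genes gave 0 and 1 (0 and 0).

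Among results that had not passed, replicates 2 and 3 alone turned the sign of MAX 209331_s_at (0.022), MLX 210752_s_at (0.022) and TXNIP 201009_s_at (0.019) in Knock Down against Wild type, and of MAX 214108_at (-0.22) and MLX 213708_s_at (-0.013) in Knock Down against Over Expression. Leaving out 1 array turned others. In Over Expression against Wild type the ranges were -0.22 to 0.071 for MAX 214108_at, -0.33 to 0.18 for MXD3, -0.048 to 0.054 for MLX 217909_s_at and -0.10 to 0.22 for MAX 208403_x_at. In Knock Down against Wild type they were -0.087 to 0.022 for MAX 209331_s_at, -0.26 to 0.17 for MLX 210752_s_at, -0.035 to 0.24 for MLXIP 202519_at, -0.20 to 0.092 for MAX 214108_at, -0.13 to 0.033 for TXNIP 201009_s_at and -0.21 to 0.0022 for MNT. In Knock Down against Over Expression they were -0.12 to 0.17 for MAX 214108_at, -0.21 to 0.080 for MLXIP 225157_at, -0.071 to 0.081 for MLX 217910_x_at, -0.31 to 0.012 for MLX 1570347_at, -0.17 to 0.0052 for ARRDC4, -0.031 to 0.13 for MLX 213708_s_at and -0.42 to 0.010 for MLX 210752_s_at. Among the network sets and the list genes followed through these settings, no called result changed sign. The marker calls were not refitted under the other model settings or without 1 array. Nor were list calls outside the comparison a gene was named for, such as CCND2, SHMT2 and TFRC in Knock Down against Over Expression.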
